A study of Homo sapiens with 5 samples.

Results

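The surface molecules described here are costimulatory and adhesion molecules of antigen-presenting cells. They are the B7 proteins CD80 and CD86, the maturation marker CD83, CD58, CD48 and SLAMF1 of the CD2 and SLAM family, the intercellular adhesion molecules ICAM1, ICAM2 and ICAM3, and the hyaluronan receptor CD44. The 10 genes were chosen by name, and each had at least 1 probe set among the 7713 genes of the array. CD44 had 2 probe sets and every other member 1, and the probe set with the highest mean stood for the gene. The probe sets of CD80, CD86, CD58 and ICAM1 have names that mark probes able to bind several transcripts, which may be splice forms or related genes. The cells were KM-H2, an established line of Hodgkin lymphoma cells of B cell origin. For 16 hours the cultures received 30 uM of LY294002, a compound that inhibits phosphoinositide 3-kinase (PI3K) and is also known to bind mTOR and BET bromodomain proteins, or the solvent DMSO alone. Triplicates were planned, but the submitters dropped 1 array whose background was high, which left 3 arrays with DMSO and 2 with LY294002. Both groups were the same cell line, so the results describe 1 line and 1 dose at 1 time.

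Costimulatory molecules give a T cell the signal it needs beside recognition of antigen. CD80 and CD86 bind CD28 and CTLA4 on T cells, CD58 and CD48 bind receptors of the CD2 family, and ICAM proteins bind the integrin LFA-1. In Hodgkin lymphoma the tumour cells lie among many T cells and are known to carry several of these molecules, and NF-kB, which is active in such cells, is a known inducer of ICAM1, CD83, CD80 and CD44.

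The line was checked against marker genes. Of 6 markers of Hodgkin cells, 6 were measured, with a mean log2 value of 8.31 to 8.50 on the DMSO arrays and 8.30 to 8.37 on the LY294002 arrays. The arrays did not overlap in 5 of the 6 (83.3%, against 29.6% of all genes), with LY294002 above in 2 and below in 3. IRF4 was 0.66 ± 0.07 higher (limma adjusted p = 0.0473), and TRAF1 differed by 0.38 ± 0.07 (0.0994). With DMSO replicate 2 or DMSO replicate 3 left out, 0 of all genes passed the threshold, so IRF4 did not pass there. The same held with the replicate number as a block. The 3 below were TNFRSF8, the gene of CD30, at -0.68 ± 0.17 (0.157), CCL17 at -0.37 ± 0.17 (0.376) and FSCN1 at -0.30 ± 0.15 (0.395). For FSCN1 the nearest arrays were almost level, at 8.7965 with DMSO and 8.7964 with LY294002. Those of CCL17 were also close, at 6.22 with DMSO and 6.18 with LY294002. For 3 markers of monocytes and macrophages the mean was 5.60 to 5.62 with DMSO and 5.54 to 5.64 with LY294002. The mean was 6.87 to 6.91 and 6.74 to 6.85 for 7 T cell markers, 5.75 to 5.84 and 5.58 to 5.65 for 4 fibroblast markers, and 7.27 to 7.35 and 7.06 to 7.08 for 4 B cell markers. The lower B cell mean came with MS4A1, the gene of CD20, which differed by -0.999 ± 0.15 (limma adjusted p = 0.073). The part of other cell types in the results was not tested. The labels do not say whether replicates were grown separately, so the p-values reflect the spread of these arrays, possibly only technical spread.

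ICAM1, CD44 and SLAMF1 had the largest differences among the members, and the sequence before the start of each of these genes is shown for that reason. The sequences are from RefSeq, build GRCh38.p14, and give the 250 bases before the start of transcription in the direction of the gene. Capitals mark matches to 4 motifs, searched on both strands. These were the kappaB consensus bound by NF-kB, by name, the letters GGAAATTCC, which are the known kappaB core of the ICAM1 promoter and were chosen for that, the core of the FOXO motif, GTAAACA, and that of the TATA box, TATAAA. ICAM1 lies on the plus strand at chr19:10270870-10271119, CD44 on the plus strand at chr11:35138921-35139170, and SLAMF1 on the minus strand at chr1:160647045-160647294.
ICAM1: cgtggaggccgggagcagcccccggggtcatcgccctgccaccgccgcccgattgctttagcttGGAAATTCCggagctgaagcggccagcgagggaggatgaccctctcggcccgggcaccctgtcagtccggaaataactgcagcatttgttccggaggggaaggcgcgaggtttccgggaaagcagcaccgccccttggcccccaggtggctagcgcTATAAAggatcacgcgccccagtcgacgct
CD44: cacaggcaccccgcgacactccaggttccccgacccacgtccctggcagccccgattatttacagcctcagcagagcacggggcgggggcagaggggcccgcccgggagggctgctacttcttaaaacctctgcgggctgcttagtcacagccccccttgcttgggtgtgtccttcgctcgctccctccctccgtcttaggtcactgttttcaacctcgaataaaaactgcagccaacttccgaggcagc
SLAMF1: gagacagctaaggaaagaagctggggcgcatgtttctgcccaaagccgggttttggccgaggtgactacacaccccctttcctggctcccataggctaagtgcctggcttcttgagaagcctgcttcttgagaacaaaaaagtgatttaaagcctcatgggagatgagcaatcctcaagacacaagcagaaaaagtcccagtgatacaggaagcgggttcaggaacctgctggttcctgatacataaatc

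The capitals of ICAM1 are the core GGAAATTCC, from 186 to 178 bases before the start, and the TATA box core, from 30 to 25 bases before it. Neither the CD44 nor the SLAMF1 window held a match. The 9 members with a sequence in the RefSeq table had 13 windows in all. CD83 had 2 of these, and the downstream window held the run GGGGAATCCCCC, which contains the kappaB consensus in overlapping matches, from 76 to 65 bases before that start. The upstream CD83 window held 2 matches to the TATA box core, 1 on each strand, from 243 to 238 and from 236 to 231 bases before its start. CD86 had 2 windows, and 1 of them held the run GGGGGTTTCCC with the same consensus, from 82 to 72 bases before that start. The consensus was found in 5.21% of all 35116 windows of the same length, the ICAM1 core in 0.413%, the FOXO core in 2.98% and the TATA box core in 10.7%. The FOXO core was in 0 of the 13 windows. The ICAM1 core was taken from the ICAM1 promoter, so its match in that window was known beforehand. A match or its absence describes these letters only.

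The comparison of LY294002 with DMSO asks whether RNA of molecules of contact with other cells differs in KM-H2 cells given the inhibitor. Protein and its level at the cell surface were not measured. ICAM1 and CD44 were 1.46-fold and 1.59-fold higher with LY294002, CD83 1.25-fold higher and SLAMF1 1.43-fold lower, and in these 4 genes no LY294002 array fell within the DMSO range. CD80, CD86, CD58, CD48, ICAM2 and ICAM3 had overlapping arrays and differences of at most 0.15 in size on the log2 scale. In the limma fit over all 8746 probe sets, 0 of the 10 members passed an adjusted p of 0.05, against 0.908% of all genes. At an unadjusted p under 0.05 there were 4 members, against 17.1% of all genes, and 4 members had arrays that did not overlap, against 29.6% of all genes. In 3 of them the LY294002 arrays were above all DMSO arrays, as in 16.2% of all genes, and in 1 they were below, as in 13.4%. The median of the members was 0.04 on the log2 scale, with 5 above 0 and 5 below. The median of all genes was -0.01, and 44.5% of them were above 0. The median size of the difference, regardless of sign, was 0.15 for the members and 0.0764 for all genes.

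**Figure D1:**
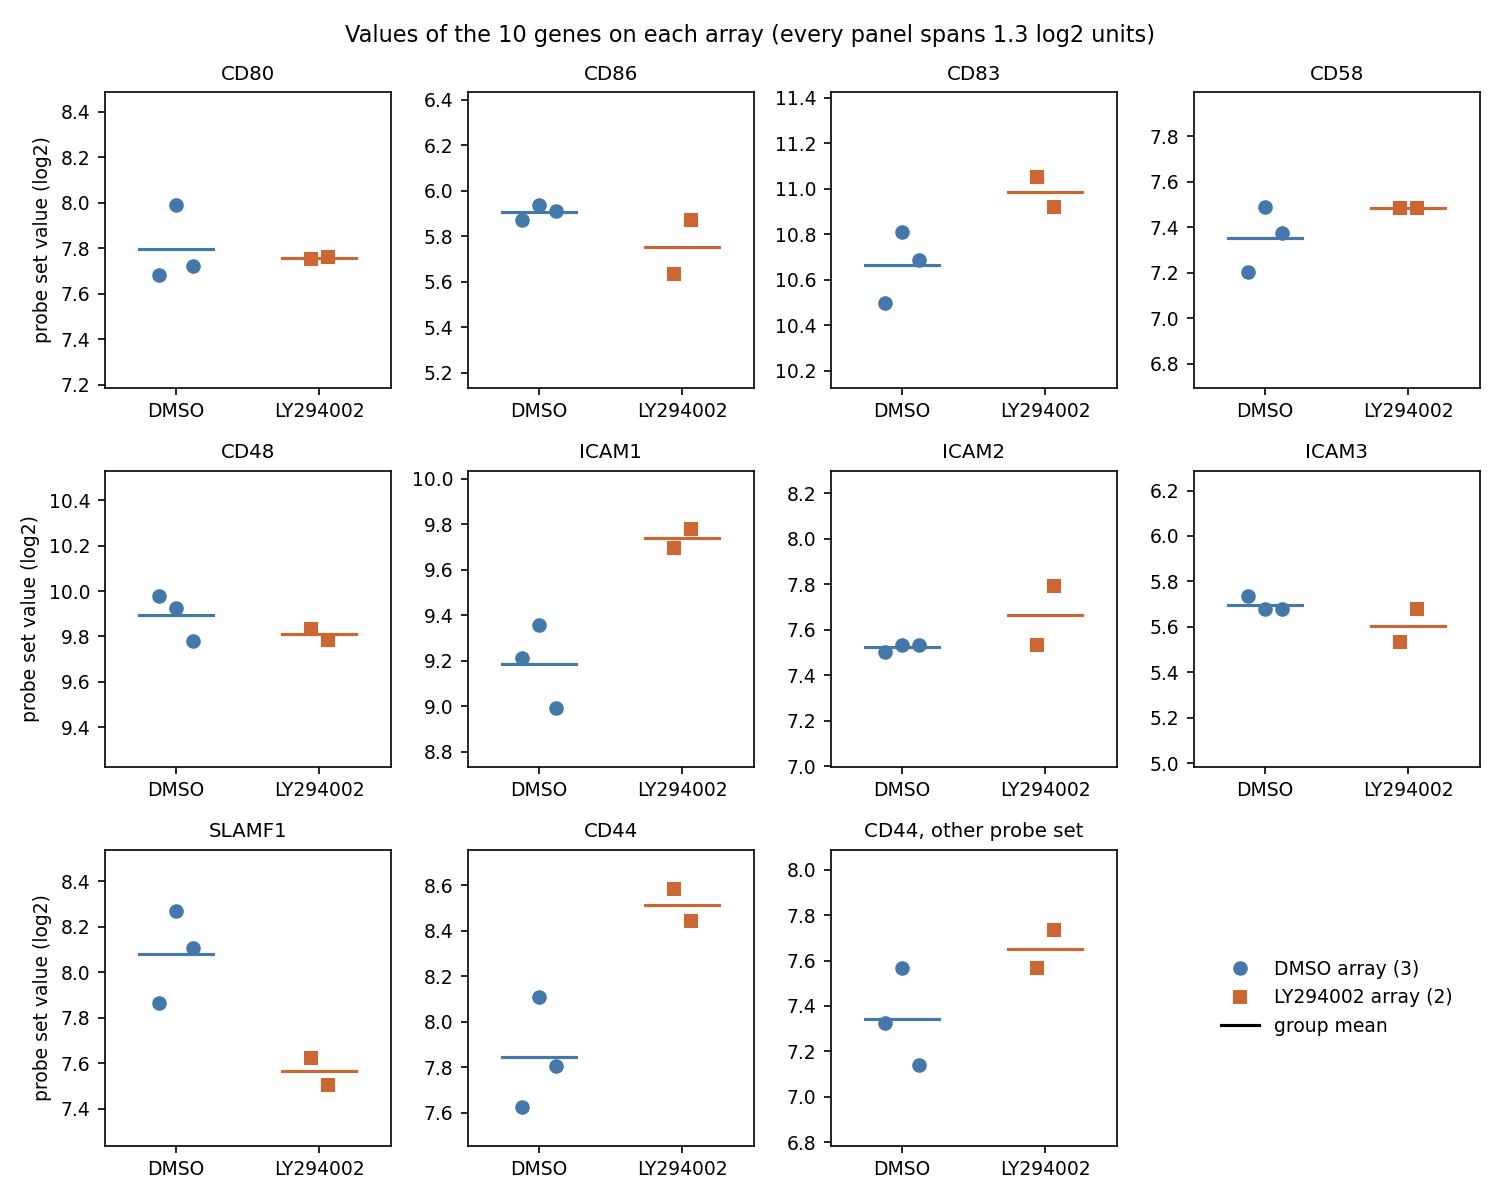
Probe set values on the log2 scale (vertical axis) for each of the 10 genes and for the other probe set of CD44, with circles for the 3 DMSO arrays, squares for the 2 LY294002 arrays and lines for group means. The squares lie above all circles for CD83, ICAM1 and the main probe set of CD44, and below them for SLAMF1. In each other panel at least 1 square lies among the circles or level with a circle.

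The genes of the B7 proteins came first in the order of roles. CD80 had log2 values of 7.68, 7.99 and 7.72 on the DMSO arrays and 7.75 and 7.76 on the LY294002 arrays, so that the treated arrays lay inside the DMSO range. Its difference was -0.04 ± 0.11 (SE of the limma fit, as below; adjusted p = 0.847), with a 95% interval from -0.32 to 0.24. That interval leaves out a fold above 1.18 or below 0.8. For CD86 the values were 5.87, 5.94 and 5.91 with DMSO and 5.63 and 5.87 with LY294002. LY294002 replicate 1 was below all DMSO arrays, while replicate 2 equalled the lowest of them. The difference of CD86 was -0.15 ± 0.08 (limma adjusted p = 0.42). Leaving out LY294002 replicate 1 brought it to -0.03, and leaving out replicate 2 to -0.27. The CD86 probe set lay at the 40th percentile of brightness over all probe sets.

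CD83, an immunoglobulin-like protein of mature dendritic cells and activated B cells, had the brightest probe set of the members, at the 98.2nd percentile. Its values were 10.50, 10.81 and 10.68 with DMSO and 11.05 and 10.92 with LY294002. The treated arrays were above the controls, but the gap between the nearest arrays was 0.11, less than the SD of 0.16 among the 3 DMSO arrays. The difference was 0.32 ± 0.11 (95% interval 0.04 to 0.60, limma adjusted p = 0.247).

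In the CD2 and SLAM family SLAMF1 stood out by its size. SLAMF1 is a receptor that binds itself on a neighbouring cell and signals through the adaptor SH2D1A. Its values were 7.86, 8.27 and 8.11 with DMSO and 7.63 and 7.51 with LY294002, so that both treated arrays were below all controls, by at least 0.24. The difference of SLAMF1 was -0.52 ± 0.13 (95% interval -0.87 to -0.16, limma adjusted p = 0.169). In size it was 244th of the 7713 genes.

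CD48, the ligand of CD244 and a more weakly bound partner of CD2, had values of 9.98, 9.93 and 9.78 with DMSO and 9.83 and 9.79 with LY294002. The arrays overlapped, and the difference was -0.08 ± 0.07 (95% interval -0.27 to 0.10, limma adjusted p = 0.533). With DMSO replicate 1 left out it was -0.04, and with DMSO replicate 3 left out -0.14. CD58, the main ligand of human CD2, had values of 7.20, 7.49 and 7.37 with DMSO and 7.48 and 7.48 with LY294002. DMSO replicate 2 was level with the treated arrays and DMSO replicate 1 was lowest, and the difference was 0.13 ± 0.09 (95% interval -0.11 to 0.37, limma adjusted p = 0.477). That of CD58 was 0.05 with DMSO replicate 1 left out and 0.20 with DMSO replicate 2 left out. SLAMF1 and CD48 are next to each other among the protein-coding genes of chromosome 1, with CD84, another SLAM receptor, on the other side of SLAMF1. CD84 differed by -0.08 ± 0.06 (limma adjusted p = 0.498), or by -0.03 with DMSO replicate 2 left out. SLAMF7, a SLAM receptor further along past CD48, differed by -0.14 ± 0.07 (limma adjusted p = 0.425). Its treated arrays were below all controls, with the nearest arrays at 7.15 and 7.18. CD84 and SLAMF7 were chosen for their place after the values were seen, and differences between genes of the cluster were not tested.

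Among the ICAM genes, ICAM1 differed most. ICAM1 is the inducible ligand of the integrins LFA-1 and Mac-1. Its log2 values were 9.21, 9.36 and 8.99 with DMSO and 9.70 and 9.78 with LY294002, and both treated arrays were above all controls by at least 0.34. The difference of ICAM1 was 0.55 ± 0.12 (95% interval 0.24 to 0.86, limma adjusted p = 0.127), the lowest adjusted p of the 10 members. In size it was 203rd of the 7713 genes.

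ICAM2, a ligand of LFA-1 best known from resting leukocytes and endothelium, had values of 7.50, 7.53 and 7.53 with DMSO and 7.53 and 7.79 with LY294002. Its difference of 0.14 ± 0.08 (95% interval -0.08 to 0.36, limma adjusted p = 0.444) came with LY294002 replicate 2 alone, since it was 0.01 without that array and 0.27 without LY294002 replicate 1. ICAM3, the ICAM of resting lymphocytes, had values of 5.74, 5.68 and 5.68 with DMSO and 5.54 and 5.68 with LY294002. The difference was -0.09 ± 0.05 (95% interval -0.24 to 0.05, limma adjusted p = 0.444). With LY294002 replicate 1 left out it was -0.02, and with replicate 2 left out -0.16. ICAM3 was the dimmest member, at the 35.5th percentile. In ICAM2 and ICAM3 some arrays of the same group hold identical values, as in 38.1% of all genes. ICAM1, ICAM4, ICAM5 and ICAM3 follow each other on chromosome 19 with few genes between them. ICAM4 differed by -0.08 ± 0.09 and ICAM5 by -0.02 ± 0.07, with limma adjusted p-values of 0.613 and 0.88. Neither sign held with every array left out in turn: ICAM4 was at 0.04 with LY294002 replicate 1 left out, and ICAM5 at 0.03 with DMSO replicate 2 or LY294002 replicate 2 left out. Within this cluster the arrays were separate in ICAM1 and overlapped in the other 3 genes.

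CD44, the receptor of hyaluronan and a marker of activated lymphocytes, had the largest difference of the 10. The values of its brighter probe set were 7.63, 8.11 and 7.81 with DMSO and 8.58 and 8.44 with LY294002. Both treated arrays were above all controls, by at least 0.34. The DMSO arrays themselves had an SD of 0.24 (n = 3) and ran from 7.63 to 8.11. The difference was 0.67 ± 0.16 (95% interval 0.25 to 1.08, limma adjusted p = 0.145), the 124th in size of the 7713 genes. The other CD44 probe set had values of 7.33, 7.57 and 7.14 with DMSO and 7.57 and 7.73 with LY294002. There the arrays touched, because LY294002 replicate 1 equalled DMSO replicate 2, and the difference was 0.31 ± 0.14 (limma adjusted p = 0.385). The mean of both probe sets differed by 0.49. CD44 is known for many splice forms, and which forms each probe set detects was not examined.

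**Figure D2:**
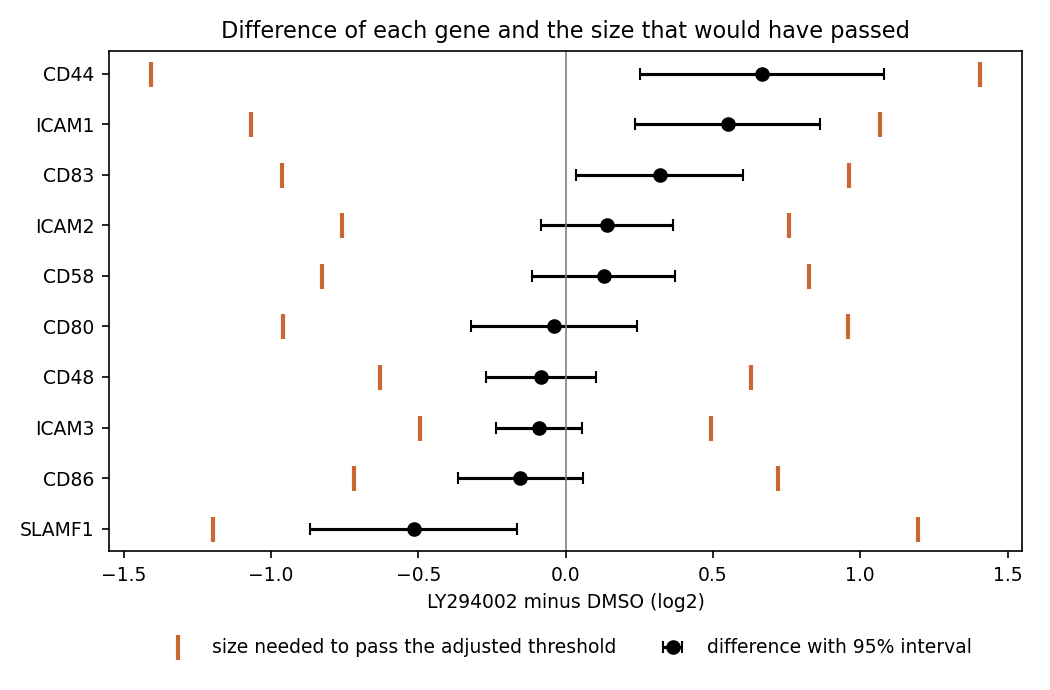
Difference of LY294002 minus DMSO on the log2 scale (horizontal axis) for each gene, with circles for the limma estimate from 3 DMSO and 2 LY294002 arrays and bars for its 95% interval. The vertical marks show the size needed to pass the adjusted threshold, from 0.49 for ICAM3 to 1.41 for CD44. No estimate reaches its mark, and the intervals of CD44, ICAM1, CD83 and SLAMF1 lie to 1 side of 0.

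The size of difference that this fit could call varied with the spread of each gene. At the p-value of the last gene that passed, ICAM1 would have needed 1.07 on the log2 scale, CD44 1.41, SLAMF1 1.20 and CD83 0.96. CD80 would have needed 0.96, CD86 0.72, CD58 0.83, CD48 0.63, ICAM2 0.76 and ICAM3 0.49. Each member was below its own limit. The number of arrays limits the precision, and a p above the threshold does not show that a gene kept its level.

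Under 14 other settings the members kept their sign wherever they had a value, except CD80, which was at 0.06 without DMSO replicate 2. In 1 of these settings, which takes out probe sets holding identical values within a group before the fit, 3 members passed out of 8 left. ICAM1 was then at an adjusted p of 0.0212, CD44 at 0.023 and SLAMF1 at 0.0346, with the same differences as before. That setting takes out probe sets of low spread, and 10.7% of the genes left passed under it. With each array left out in turn, ICAM1 ran from 0.45 to 0.64, CD44 from 0.56 to 0.80, SLAMF1 from -0.62 to -0.42 and CD83 from 0.24 to 0.39.

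**Figure D3:**
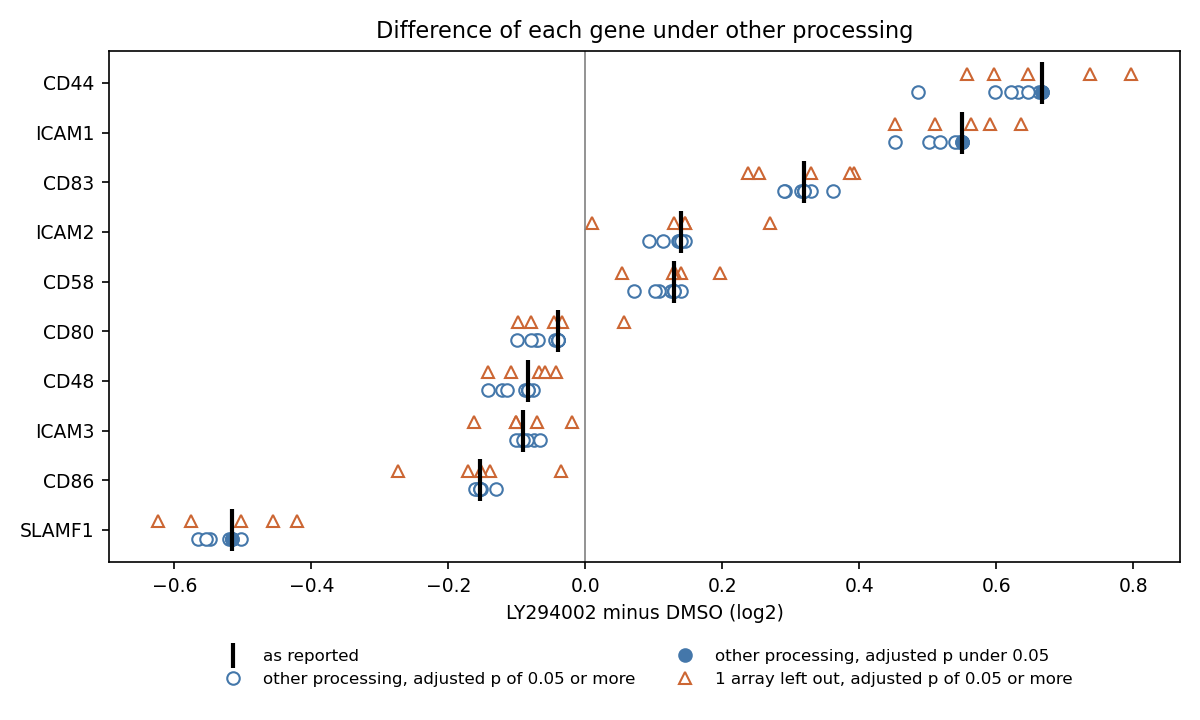
Difference of each gene on the log2 scale (horizontal axis) as reported (vertical bars), under other processing (circles) and with 1 array left out (triangles), where filled circles mark an adjusted p under 0.05. Filled circles appear for CD44, ICAM1 and SLAMF1, and only CD80 has a value on the other side of 0.

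Partners of these molecules were listed by role in 6 lists with 104 genes, of which 76 had a probe set that names them alone. Of these, 0 passed the limma threshold, against 0.908% of all genes, and 19 had an unadjusted p under 0.05, against 17.1%. Arrays did not overlap in 27 (35.5%), against 29.6% of all genes. The list medians ran from -0.09 to 0.05 on the log2 scale.

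The list of the B7 family, its receptors and its turnover had 6 measured genes with a median of -0.05, and the arrays did not overlap in 2 (33.3%, against 29.6% of all genes). TNFRSF14, the ligand of BTLA, differed by 0.22 ± 0.05 (limma adjusted p = 0.136) and CD28, the T cell receptor of CD80 and CD86, by -0.12 ± 0.03 (0.192). The probe sets of 5 of the 6 were below the median brightness. In the CD2 and SLAM list, 8 of 10 measured genes were below 0, as were 4277 of all 7713 genes, and the list median was -0.09. Among those 8, CD244 and SLAMF8 were at -0.04, each with identical values on the LY294002 arrays. The arrays did not overlap in 5 of the 10 (50%, against 29.6% of all genes). FYN, the kinase that SH2D1A brings to SLAM receptors, was at 7.26, 7.32 and 7.32 with DMSO and at 7.91 and 7.69 with LY294002, a difference of 0.50 ± 0.07 (limma adjusted p = 0.0732). INPP5D, the phosphatase SHIP1, which removes a phosphate from the product of PI3K, was at 8.70, 8.87 and 8.81 with DMSO and at 8.43 and 8.22 with LY294002, a difference of -0.47 ± 0.09 (0.0994). SH2D1A itself, chosen after its values were seen, differed by -0.43 ± 0.08 (0.102). Its treated arrays were below its controls, as in SLAMF1, and its probe set lay at the 26th percentile of brightness.

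Among 16 integrins and integrin activators, 7 were above 0 and 9 below, with a median of -0.01. CYTH1, cytohesin-1, which binds the LFA-1 beta chain, was at 6.22, 6.47 and 6.34 with DMSO and at 7.57 and 7.12 with LY294002, and its difference of 1.01 ± 0.16 (limma adjusted p = 0.0776) was the largest of all partners. ITGAM, the alpha chain of Mac-1, differed by -0.48 ± 0.17 (0.261). The other chains of the ICAM1 receptors were looked at after their values were seen: ITGB2, the shared beta chain, differed by -0.36 ± 0.08 (0.127), and ITGAL, the alpha chain of LFA-1, by 0.02 ± 0.06 (0.839), or by -0.01 with DMSO replicate 3 left out. For ITGAM and ITGB2 both treated arrays were below all controls, and for ITGAL the arrays overlapped. The ITGAL probe set lay at the 18.3rd percentile of brightness, with identical values on the LY294002 arrays, and that of ITGAM at the 39.7th.

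Of 16 genes for ligands, linkers and sheddases of CD44, 8 were above 0 and 8 below, with a median near 0. HMMR, another hyaluronan receptor that is also a protein of the mitotic spindle, was at 7.38, 7.44 and 7.35 with DMSO and at 8.07 and 7.89 with LY294002. Its difference of 0.59 ± 0.07 just missed the limma threshold (adjusted p = 0.0504), and it passed under 7 of 14 other settings. ADAM10, a protease that cuts CD44 from the surface, was at 9.21, 9.32 and 9.20 with DMSO and at 9.87 and 9.61 with LY294002, a difference of 0.50 ± 0.09 (0.0995). After quantile normalization 7 partners passed, against 3.88% of all genes: HMMR, INPP5D, ITGB2, FYN, CYTH1, ADAM10 and ANK3, an ankyrin, with limma adjusted p-values from 0.00985 to 0.0458. The count of partners past the threshold was also 7 of 76 after cyclic loess, against 3.42% of all genes. Without identical values it was 9 of 47, against 10.7% of all genes. It was 1 with median centring (against 1.91% of all genes) and 1 with averaged probe sets (1.13%). The intensity trend gave 2 (1.31%), and 3 of 47 passed without dim probe sets (4.37%). The count was 0 with array weights (0.22%), with the replicate block (0%) and with any 1 DMSO array left out (at most 0.0519%).

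Among 8 tetraspanins, membrane proteins that organise other surface molecules, 5 were above 0 and 3 below. CD37, a tetraspanin of B cells, was at 7.98, 7.66 and 7.51 with DMSO and at 7.11 and 7.04 with LY294002, a difference of -0.65 ± 0.15 (0.144), while CD81, another tetraspanin of B cells, was at 0.34 ± 0.13 (0.316). CD81 was at 0.13 with LY294002 replicate 1 left out and at 0.55 with LY294002 replicate 2 left out. The 20 other adhesion molecules were at a median of -0.02, with ALCAM, the ligand of CD6, at 0.27 ± 0.07 (0.178) and CD24 at -0.25 ± 0.08 (0.256). The CD24 probe set was dim, at the 9.28th percentile of brightness.

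**Figure D4:**
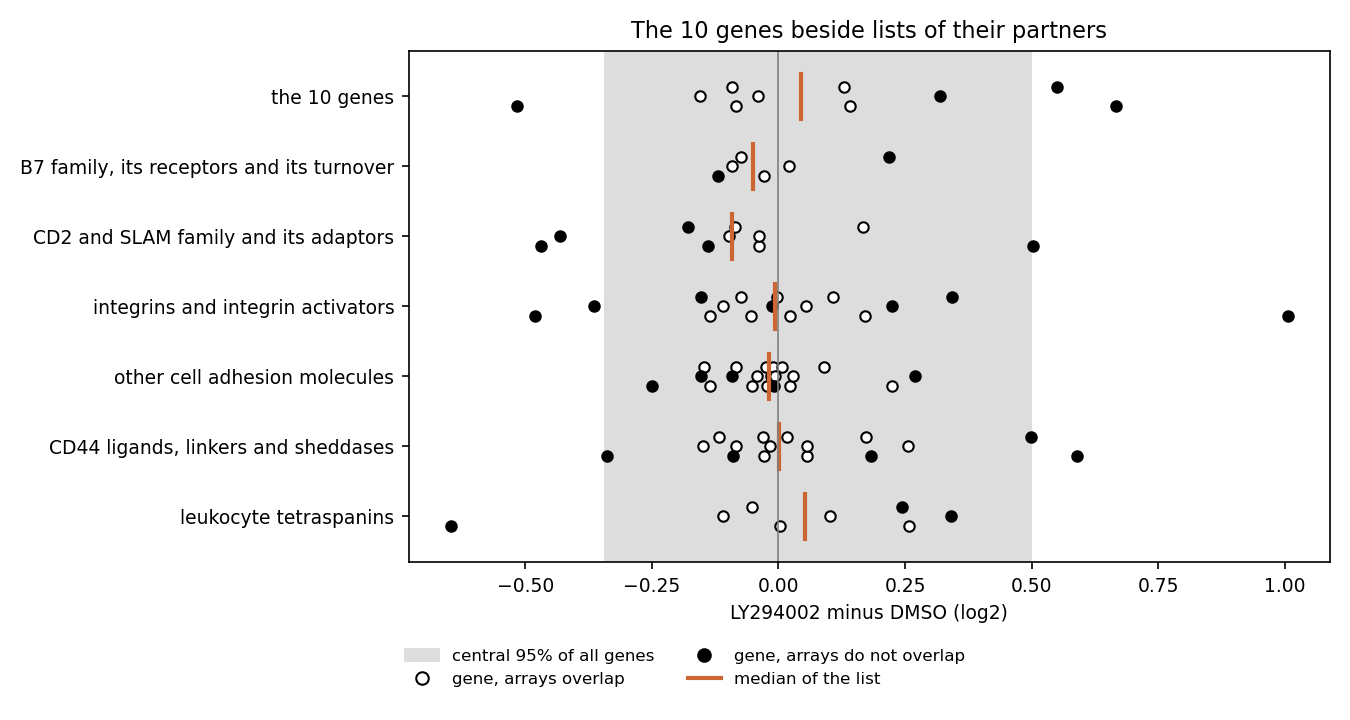
Difference of LY294002 minus DMSO on the log2 scale (horizontal axis) for the 10 genes and the measured genes of 6 partner lists, with filled points where the arrays of both groups did not overlap and a bar for each list's median. The grey band holds the central 95% of all genes, from -0.34 to 0.50. ICAM1, CD44 and SLAMF1 lie outside it, and so do CYTH1, HMMR, FYN, CD37, ITGAM, INPP5D, SH2D1A and ITGB2 among the partners.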

How the data were processed

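The authors deposited probe set values on a log2 scale. The submitters' processing notes name the R package affy; its version, background method and probe summary: not given in the sources used here. Values were used as deposited, with array medians from 6.26 to 6.29. Of 8793 probe sets, 47 controls were left out. The platform annotation gave 1 symbol for 7840 probe sets, several for 388 and none for 518. Groups were compared by limma 3.58.1 (lmFit, eBayes; R 4.3.3, statmod 1.5.0), with Benjamini-Hochberg adjustment over 8746 probe sets, a threshold of 0.05 and 3 residual degrees of freedom. The fit was tested on simulated data. Errors are standard errors of the fit; a fold is 2 raised to the log2 difference. Brightness percentiles do not order genes by level.

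The members and lists were chosen with earlier results of these data known. All members are named, and of each partner list the genes past the threshold or, with none, the 2 with the largest difference. Alternatives were quantile normalization, median centring, cyclic loess, a filter on the dimmest 40%, an intensity trend with robust prior, array weights, the replicate block, averaged probe sets per gene, removal of identical values, and each array left out. Plots used matplotlib 3.10.9 (Python 3.11.15).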

Additional observations from a re-analysis of the deposited data

How the results depend on the processing

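The count of members past the limma threshold was 0 as reported and under 13 of 14 other settings, and 3 without probe sets that hold identical values within a group. The count of all genes was 70 as reported, 299 after quantile normalization, 147 after median centring, 264 after cyclic loess, 203 without dim probe sets, 17 with array weights and 510 without identical values, and the cause was not tested. With 1 array left out it ran from 0 to 4: it was 4 without DMSO replicate 1 and 0 without any other array, where 946 to 2085 genes still had an unadjusted p under 0.05. With 1 array left out CD80 ran from -0.098 (without DMSO replicate 1) to 0.057 (without DMSO replicate 2), the 1 change of sign among the members. With the replicate number as a block, 0 members and 0 genes passed, and 1 member and 820 genes had an unadjusted p under 0.05. Number 3 has only a DMSO array, so the block takes up that array and leaves fewer residual degrees of freedom. Its estimates equal those without DMSO replicate 3, as with 0.45 for ICAM1 and 0.65 for CD44 in both, so these are not separate settings for the estimate. The numbers are not known to pair the arrays. Deviations from the group means correlated at 0.0021 for number 1 and -0.21 for number 2. With 2 LY294002 arrays their deviations are mirror images, so these are not separate checks and cannot settle the pairing. ICAM2 and ICAM3 have no value without identical values, and CD86 and ICAM3 none without dim probe sets. In fits with 1 LY294002 array, that array is assumed to vary like the DMSO arrays.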

Other observations

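The DMSO arrays differed among themselves in these genes. DMSO replicate 2 was the highest DMSO array in 7 of the 10 members, against 31.2% of all genes, and DMSO replicate 1 the lowest in 7, against 33.7% of all genes. The members share these 3 arrays, so the counts are a description with no test.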
